A study of Mus musculus with 8 samples.

Results

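Integrins are heterodimers of an alpha and a beta chain that bind cell-surface ligands and extracellular matrix, and blood cells use them to stick to vessel walls, to migrate and to engulf targets. Leukocytes share the beta 2 chain, CD18, whose partners include CD11a, CD11b and CD11c. CD11b is high on neutrophils and monocytes, and in mouse lung CD11c is high on both dendritic cells and alveolar macrophages. The 8 genes described here are every row of the deposited panel whose symbol begins with Itg, out of 754 gene rows, and they were taken by name alone: Itgam, Itgax, Itgal, Itgb2, Itga4, Itgb7, Itga5 and Itgb1. They encode 5 alpha and 3 beta chains, and Itgam and Itgax encode CD11b and CD11c, the targets of the beads that isolated the cells.

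The RNA came from lungs of Balb/c mice all grafted with 4T1, a murine breast carcinoma line known to metastasise to lung. DSHN, which activates the orphan nuclear receptor NR0B2, was given once a day at 10 mg/kg over 7 days, beginning 10 days after grafting, and placebo mice received DMSO over the same days. The labels give no age or sex. Each sample is a pool of lungs from 3 mice of 1 treatment, with 4 DSHN and 4 DMSO pools from 24 mice, and transcripts were counted with NanoString nCounter, which reads colour-coded probes without amplification.

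The labels call the isolated cells dendritic cells, but of 6 dendritic cell markers on the panel none was above background in all 8 pools. Flt3 was above it in 2 pools, Clec9a in 1 and Xcr1 in 0, while Batf3, Ccr7 and Irf4 were above it in 7 each. The pool that these last genes missed was DSHN 1, which had the fewest counts and the highest background limit. Of 12 neutrophil markers, 9 were above background in all 8 pools, as were 5 of 6 monocyte markers and 5 of 8 alveolar macrophage markers. The pools are described here as CD11b and CD11c bead-selected lung cells. In mixed cells, fewer cells of a type and less RNA per cell cannot be told apart. A pair of pools stood apart: DSHN 1 had 123700 gene counts and 293 genes above background, against 533000 to 923600 counts and 498 to 559 genes in the other pools, and DMSO 1 had low spike-in counts, so that its deposited values carried a factor of 6.84. Deposited values ran lower in DSHN across the panel, with DSHN minus DMSO differences of -1.90 (log2) for the mean of the 4 housekeeping genes and a median of -1.87 over tested genes, so levels are given as log2 values scaled to the geometric mean of Oaz1, Ppia, Rpl19 and Tubb5 in each pool. Levels of different genes are not set against each other, since each probe has its own efficiency.

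All 8 integrin genes were above background in all 8 pools, with 83 to 540 counts in DSHN 1 and 98 to 5517 in the other pools. None differed between treatments past the test's threshold (limma, adjusted p under 0.05 over the 554 genes tested, 0% of which passed; lowest adjusted p among the 8 genes = 0.925). At an unadjusted p under 0.05 there were also 0 of 8, against 3.61% of all tested genes, and the lowest p was 0.327. In each of the 8 genes the DSHN and DMSO pools overlapped, whereas the groups did not overlap in 3.25% of tested genes. Of the 8 differences, 5 were above 0 and 3 below, with a median of 0.11 against 0.03 over all tested genes; scaled without Tubb5, 7 were above 0 and 1 below, with medians of 0.28 and 0.20. Without DMSO 1 and DSHN 1, 3 were above 0 and 5 below, with a median of -0.03 against 0.06, and again 0 passed.

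**Figure D1:**
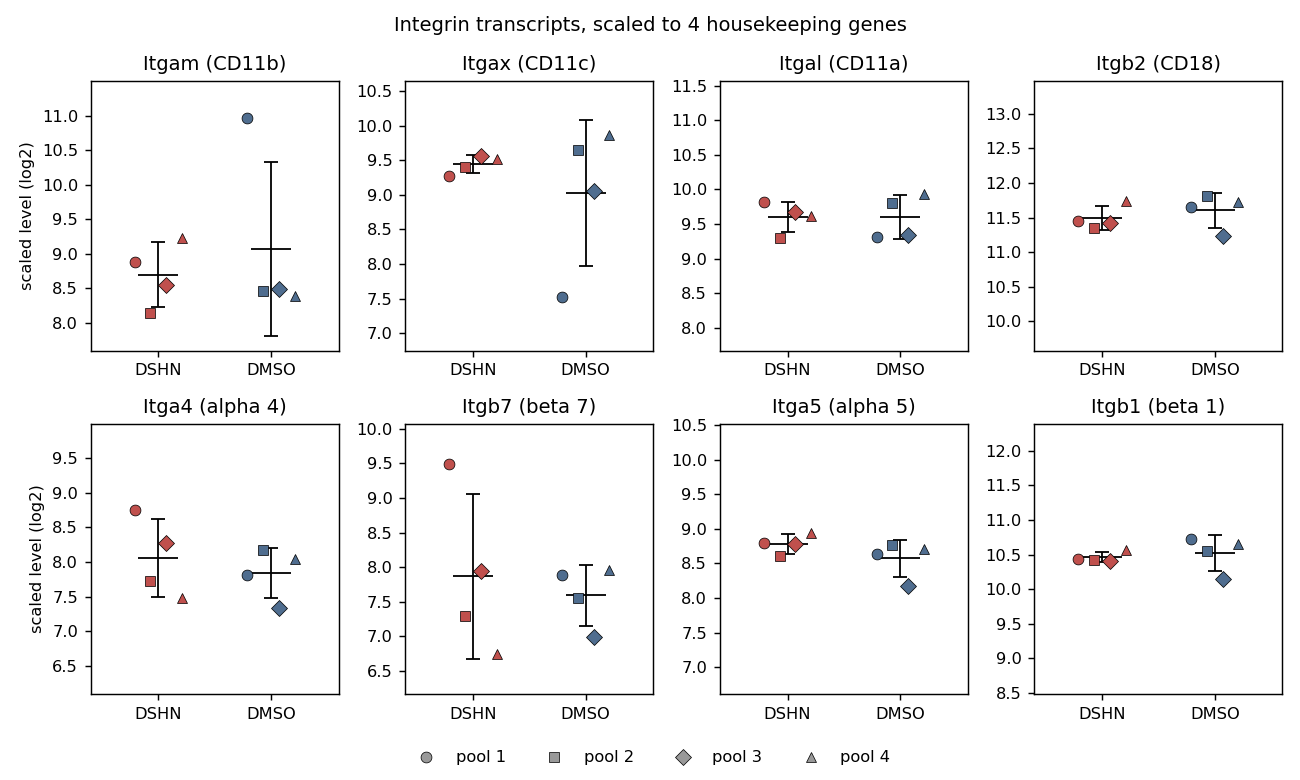
Scaled level (log2) of each integrin transcript in the 4 DSHN and 4 DMSO pools, one panel per gene with a common span on the vertical axes; marker shapes give the pool number, and horizontal bars with whiskers the group mean and SD. Itgam at 10.96 and Itgax at 7.53 in DMSO 1, and Itgb7 at 9.50 in DSHN 1, lie apart from the other pools, while Itgb1 spans 0.59 and Itgb2 0.57.

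The bead targets are considered first. Itgam (chromosome 7, 128062640 to 128118491 in GRCm38.p6, RefSeq) and Itgax (chromosome 7, 128129526 to 128150657) are neighbours, 11.03 kb apart with 1 annotated gene between them. Their promoter windows, 250 bases before to 50 after the transcript start used by the RefSeq promoter table, are shown because these 2 genes went opposite ways in 1 pool. They were searched on both strands for GAGGAA, the core recognised by the myeloid factor PU.1, for TGANTCA, the AP-1 site, and for GGGCGG, the GC box bound by Sp1. Matches are in capitals, and no matches overlapped. The Itgam window lies at chr7:128062390-128062689 and the Itgax window at chr7:128129300-128129599, both on the plus strand (RefSeq, GRCm38.p6).
Itgam: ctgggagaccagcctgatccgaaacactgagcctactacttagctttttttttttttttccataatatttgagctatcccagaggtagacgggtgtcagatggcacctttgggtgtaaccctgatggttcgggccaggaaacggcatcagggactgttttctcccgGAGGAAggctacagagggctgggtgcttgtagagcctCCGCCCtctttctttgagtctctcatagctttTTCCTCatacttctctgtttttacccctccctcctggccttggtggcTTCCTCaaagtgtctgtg
Itgax: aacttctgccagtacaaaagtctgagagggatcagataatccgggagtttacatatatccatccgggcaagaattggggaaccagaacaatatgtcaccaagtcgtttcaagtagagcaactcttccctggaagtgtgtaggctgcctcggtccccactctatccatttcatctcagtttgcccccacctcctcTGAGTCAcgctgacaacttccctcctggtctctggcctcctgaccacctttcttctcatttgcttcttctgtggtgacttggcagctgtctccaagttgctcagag

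The Itgam window held 3 PU.1 cores, 0 AP-1 sites and 1 GC box, and the Itgax window 0, 1 and 0. Over 32851 promoters of the same length, 28.3% held a PU.1 core, 7.81% an AP-1 site and 35.7% a GC box. These matches describe the letters only.

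Itgam had scaled levels of 8.88, 8.14, 8.55 and 9.24 in DSHN pools 1 to 4, against 10.96, 8.47, 8.49 and 8.39 in DMSO pools 1 to 4. DMSO 1 lay above every other pool, and the other 3 DMSO pools lay inside the DSHN range. The means were 8.70 ± 0.47 in DSHN and 9.07 ± 1.26 in DMSO (SD, n = 4 each), a difference of -0.37 ± 0.55 (SE, limma adjusted p = 0.925). Without DMSO 1 the difference was 0.25, with a 95% interval of -0.29 to 0.80.

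Itgax had scaled levels of 9.28, 9.40, 9.56 and 9.53 in DSHN pools 1 to 4, against 7.53, 9.66, 9.06 and 9.87 in DMSO pools 1 to 4. Here DMSO 1 was the lowest pool, and all 4 DSHN pools lay between the other DMSO pools. The means were 9.44 ± 0.13 in DSHN and 9.03 ± 1.06 in DMSO (SD, n = 4 each), with a difference of 0.41 ± 0.45 (SE, limma adjusted p = 0.925) that was -0.09 (-0.56 to 0.39) without DMSO 1. Recovered counts of Itgax were 120 to 755 in the DSHN pools, 144 in DMSO 1 and 659 to 1243 in the other DMSO pools, so the DMSO 1 value lay above its background limit of 27.0 counts.

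The ratio of the 2 chains within a pool does not depend on how a pool is scaled. As log2 values, Itgax over Itgam was 0.40, 1.26, 1.01 and 0.29 in DSHN pools 1 to 4, against -3.43, 1.19, 0.57 and 1.48 in DMSO pools 1 to 4. Its value ran from 0.29 to 1.48 in 7 pools, and in DMSO 1 it lay 19.9-fold below the mean of those 7. The group difference was 0.79 (two-sided exact permutation p = 0.857, where 70 assignments can give no p below 0.0286), and -0.34 without DMSO 1.

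The summed markers of neutrophils and of monocytes, and the 1 platelet marker, were highest in DMSO 1, as was Itgam. Each sum is weighted to the genes with the highest levels, and not every marker of a list followed its sum in that pool. Summed over the 12 neutrophil markers on the panel, the scaled level was 16.12 to 17.27 in DSHN pools, 17.78 in DMSO 1 and 16.38 to 16.75 in the other DMSO pools. The 6 monocyte markers summed to 13.53 to 13.59 in DSHN pools, 14.38 in DMSO 1 and 13.13 to 13.57 in the other DMSO pools. With Itgam, the neutrophil sum had r of 0.91 over all 8 pools and 0.93 without DMSO 1. For the monocyte sum these were 0.89 and 0.37. The 8 alveolar macrophage markers summed to 12.94 to 15.02 in DSHN pools, 13.09 in DMSO 1 and 14.13 to 14.84 in the other DMSO pools. The lowest pool of this sum was DSHN 1, and its r with Itgax was 0.57 over all 8 pools and 0.12 without DMSO 1. Taken singly, most of the 8 markers were lowest in DMSO 1, as was Itgax. Siglecf, for example, had 6.17 in DMSO 1 and 7.93 to 9.02 in the other pools. Pf4, a platelet chemokine and the panel's 1 marker of its list, was above background in 7 pools, not in DSHN 1. It had 7.28 in DSHN 1, 5.48 to 6.65 in the other DSHN pools, 9.84 in DMSO 1 and 4.84 to 5.31 in the other DMSO pools. Of these 4 lists, 2 neutrophil markers, Mpo and Elane, were at background in every pool, and no list had a value at 0. Their part in the levels of Itgam and Itgax was not tested.

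The genes whose pattern over the 8 pools was most like that of each bead target were taken by Pearson correlation of scaled levels among the 290 other genes above background throughout. For Itgam they included Ifnar2 (r = 0.97), a chain of the type I interferon receptor, Csf1r (0.95), the receptor for macrophage growth factor, Ccl2 (0.95), a monocyte attractant, and C3ar1 (0.95), the receptor for complement C3a. In DMSO 1 Ccl2 lay 3.38 and C3ar1 3.37 above the mean of the other 7 pools, and the likeness was lower without this pool. Then r was 0.76 for Ifnar2, 0.58 for Ccl2, 0.57 for Csf1r and 0.52 for C3ar1.

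For Itgax the most alike included F11r (r = 0.98), the junction molecule JAM-A and a ligand of CD11a/CD18, Il18 (0.98), Siglecf (0.95), a lectin of alveolar macrophages and eosinophils, and Ear3 (0.95), an eosinophil-associated ribonuclease. These 4 genes were lowest in DMSO 1, at -2.45 to -1.52 relative to the mean of the other 7 pools. Without DMSO 1, r was 0.88 for Il18, 0.84 for F11r, 0.67 for Ear3 and 0.64 for Siglecf. The likeness is measured over 7 or 8 points that share the same scaling genes.

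**Figure D2:**
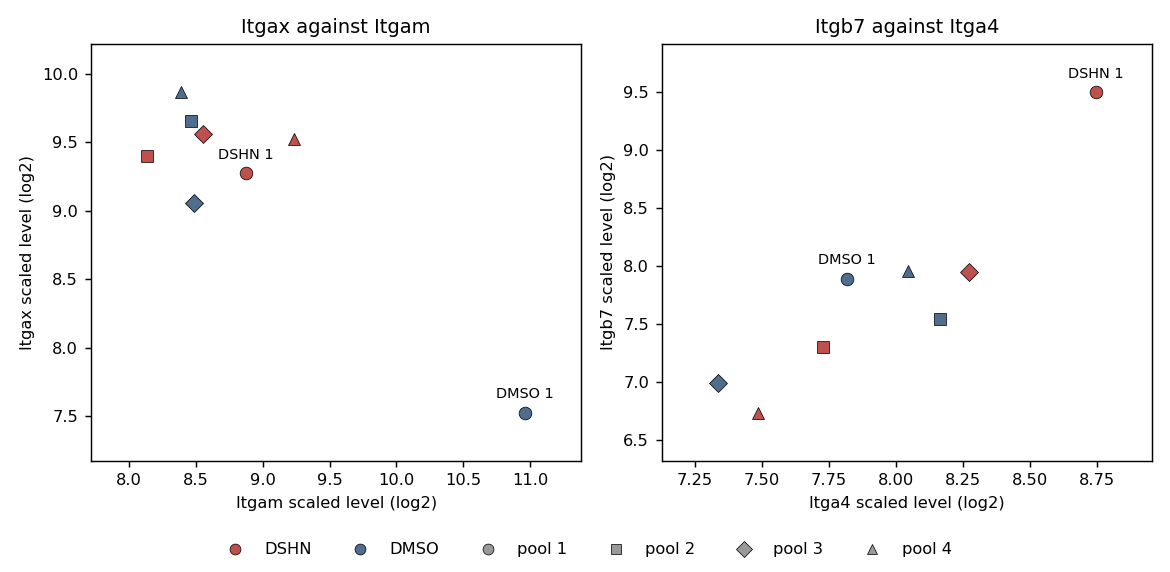
Scaled level (log2) of Itgax against Itgam (left) and of Itgb7 against Itga4 (right), 1 point per pool, coloured by treatment with the pool number as marker shape. On the left, DMSO 1 stands alone at Itgam 10.96 and Itgax 7.53, and r is -0.09 over the other 7 pools; on the right, the pools run along a rising line that ends at DSHN 1 (8.75 and 9.50).

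Itgal (chromosome 7, 127296139 to 127335137) encodes CD11a, which with CD18 forms LFA-1, the receptor through which leukocytes bind ICAM-1. Its scaled levels were 9.82, 9.30, 9.67 and 9.62 in DSHN pools 1 to 4, against 9.32, 9.81, 9.34 and 9.94 in DMSO pools 1 to 4. The ranges nearly coincided, with means of 9.60 ± 0.22 in DSHN and 9.60 ± 0.32 in DMSO (SD, n = 4 each) and a difference whose 95% interval ran from -0.49 to 0.50.

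Itgb2 (chromosome 10, 77530329 to 77565708), the shared CD18 chain without which its alpha partners are not held at the surface, had scaled levels of 11.45, 11.35, 11.42 and 11.74 in DSHN pools 1 to 4, against 11.65, 11.81, 11.24 and 11.73 in DMSO pools 1 to 4. The lowest and the highest pool were both DMSO pools, and the difference was -0.12 ± 0.20 (SE, limma adjusted p = 0.925), turning to 0.06 when scaled without Tubb5. Its SD over all 8 pools was 0.21, against a median SD of 0.40 for the 291 genes above background throughout, and 9.28% of those genes varied less. The SDs of Itgam and Itgax were 0.90 and 0.73, larger than those of 94.2% and 86.3% of the same genes. Without DMSO 1 and DSHN 1 they were 0.37 and 0.27, against a median of 0.25.

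Set against CD18, the alpha partners differed in DMSO 1. Log2 Itgam over Itgb2 was -2.57, -3.21, -2.87 and -2.50 in DSHN pools 1 to 4, against -0.69, -3.34, -2.75 and -3.34 in DMSO pools 1 to 4. Log2 Itgax over Itgb2 was -2.17, -1.95, -1.86 and -2.21 in DSHN pools, against -4.12, -2.15, -2.18 and -1.86 in DMSO pools. DMSO 1 was therefore the highest pool for CD11b per CD18 and the lowest for CD11c per CD18, at 2.25 and -2.07 relative to the mean of the other 7. Log2 Itgal over Itgb2 spanned -2.12 to -1.63 in DSHN pools and -2.33 to -1.79 in DMSO pools, with DMSO 1 lowest. The group differences of these ratios were -0.26, 0.53 and 0.12, with exact permutation p = 0.943, 0.571 and 0.514. Without DMSO 1 they were 0.36, 0.016 and 0.0092.

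**Figure D3:**
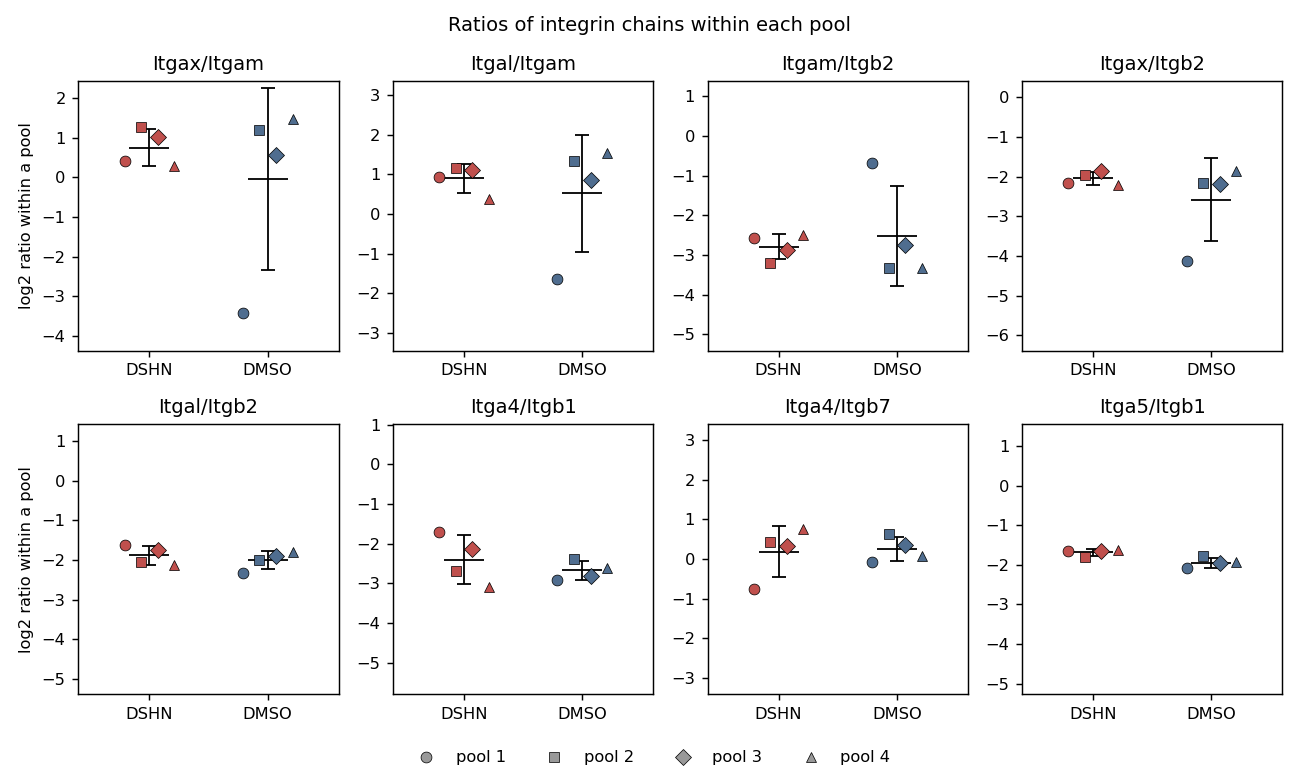
Log2 ratio of 2 integrin chains within each pool, for 8 pairs, in DSHN and DMSO pools; marker shapes give the pool number, horizontal bars with whiskers the group mean and SD, and all panels span the same range. DMSO 1 leaves the other pools in the 4 panels with Itgam or Itgax, while Itga5/Itgb1 differs between groups by 0.27 with only DSHN 2 and DMSO 2 crossing.

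Itga4 and Itgb7 form alpha 4 beta 7, the receptor for the gut addressin MAdCAM-1, and alpha 4 also pairs with beta 1 to bind VCAM-1 and fibronectin. Itga4 lies at 79255426 to 79333114 on chromosome 2 and Itgb7 at 102215994 to 102233405 on chromosome 15. Their promoter windows are shown because the 2 transcripts varied together. The Itga4 window is chr2:79255176-79255475 on the plus strand and the Itgb7 window chr15:102231886-102232185 on the minus strand, with the same motifs in capitals. The Itgb7 window is set on the transcript start of the promoter table, which lies inside the gene's annotated span and not at its outer edge.
Itga4: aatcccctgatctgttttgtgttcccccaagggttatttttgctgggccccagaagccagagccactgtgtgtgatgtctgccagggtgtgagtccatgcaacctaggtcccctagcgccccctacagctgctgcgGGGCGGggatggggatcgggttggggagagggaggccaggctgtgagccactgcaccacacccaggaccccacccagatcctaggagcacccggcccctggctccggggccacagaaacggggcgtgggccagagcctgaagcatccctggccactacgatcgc
Itgb7: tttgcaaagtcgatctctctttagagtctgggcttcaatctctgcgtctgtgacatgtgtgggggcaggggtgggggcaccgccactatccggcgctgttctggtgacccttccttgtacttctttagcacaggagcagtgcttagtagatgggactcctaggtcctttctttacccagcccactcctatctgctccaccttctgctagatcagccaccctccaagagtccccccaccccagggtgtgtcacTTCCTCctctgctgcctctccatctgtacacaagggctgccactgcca

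The Itga4 window held 1 GC box and no PU.1 core, and the Itgb7 window 1 PU.1 core and no GC box. Of the 8 genes, 6 matched the promoter table, all but Itgal and Itgb2.

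Itga4 had scaled levels of 8.75, 7.73, 8.27 and 7.49 in DSHN pools 1 to 4, against 7.82, 8.17, 7.34 and 8.05 in DMSO pools 1 to 4. Itgb7 had 9.50, 7.30, 7.94 and 6.74 in DSHN pools, against 7.89, 7.55, 6.99 and 7.96 in DMSO pools. DSHN 1 was the highest pool for both genes, and DSHN 4 and DMSO 3 were the lowest 2. The group differences were 0.22 ± 0.31 for Itga4 and 0.27 ± 0.53 for Itgb7 (SE, limma adjusted p = 0.925 and 0.926), and -0.01 and -0.27 without DSHN 1. Without DMSO 3 they were 0.05 and 0.07.

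Over the 8 pools, Itga4 and Itgb7 correlated with r = 0.91 (exact permutation p = 0.00176, adjusted p = 0.0493 over 28 pairs) and Spearman rho = 0.86 (exact permutation p = 0.0107, adjusted p = 0.3). Without DSHN 1 and DMSO 3, the pools farthest from the median of Itga4, r was 0.78 (exact permutation p = 0.0514), and without DMSO 1 and DSHN 1 it was 0.89. Within treatments, as deviations from each group's mean, it was 0.91, and after centring pools on the panel median 0.86. The adjusted p lay near the threshold: of the 8 fits that leave out 1 pool it passed in 1, that without DMSO 2 (adjusted p = 0.0444, exact permutation), and the other 7 had adjusted p between 0.0667 and 0.272.

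Summed markers of several unrelated cell types were highest in DSHN 1, as was Itgb7, and those of eosinophils were among them. The 5 eosinophil genes on the panel summed to 11.20 in DSHN 1, 9.12 to 10.44 in the other DSHN pools and 8.35 to 10.15 in DMSO pools. Prg2, the eosinophil major basic protein, had 10.44, 8.51, 9.92 and 8.82 in DSHN pools 1 to 4, against 7.58, 8.88, 9.21 and 9.53 in DMSO pools 1 to 4. Prg2 and Ear6 were above background in all 8 pools and Epx, the eosinophil peroxidase, in 0. Endothelial markers summed to 8.5 in DSHN 1 and 5.2 to 6.7 in the other pools. Mast cell and basophil markers, 5 of 6 at background in every pool, summed to 8.18 against 4.87 to 6.37. Sums for neutrophils, monocytes, NK cells and platelets were highest in DMSO 1, and that for alveolar macrophages in DSHN 4. All the endothelial, mast cell and basophil markers were at background in DSHN 1, so their high sums there are not measured levels. Prg2 and Ear6 were above background in that pool. DSHN 1 also had the fewest counts and the highest background limit. The part of these markers and of the low counts in the Itga4 and Itgb7 levels was not tested.

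Itga5 (chromosome 15, 103344286 to 103366791) encodes alpha 5, which with beta 1 forms the main fibronectin receptor. Itga5 had scaled levels of 8.80, 8.61, 8.77 and 8.95 in DSHN pools 1 to 4, against 8.64, 8.77, 8.18 and 8.71 in DMSO pools 1 to 4. The means were 8.78 ± 0.14 in DSHN and 8.57 ± 0.27 in DMSO (SD, n = 4 each), and the difference of 0.21 ± 0.20 (SE) had the lowest unadjusted p among the integrins, 0.327 (limma adjusted p = 0.925). It was 0.23 without DMSO 1, 0.23 without DMSO 1 and DSHN 1, and 0.08 without DMSO 3, the lowest pool.

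Itgb1 (chromosome 8, 128685654 to 128733579), the beta 1 chain shared by alpha 4 and alpha 5, had scaled levels of 10.44, 10.42, 10.41 and 10.57 in DSHN pools 1 to 4, against 10.73, 10.55, 10.14 and 10.65 in DMSO pools 1 to 4. The DSHN pools lay inside the range of the DMSO pools. With an SD of 0.18 over 8 pools it was the least variable integrin transcript, and 4.47% of the 291 genes varied less. The difference was -0.06, with a 95% interval of -0.49 to 0.38, and 0.12 when scaled without Tubb5.

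Log2 Itga5 over Itgb1 was -1.64, -1.81, -1.64 and -1.62 in DSHN pools 1 to 4, against -2.09, -1.78, -1.96 and -1.94 in DMSO pools 1 to 4. It was higher in DSHN by 0.27, with only DSHN 2 below a DMSO pool. Of the 8 ratios examined it had the lowest p (exact two-sided permutation p = 0.0571), which did not hold after adjustment over the 8 ratios (adjusted p = 0.457). Log2 Itga4 over Itgb1 differed by 0.27 (exact permutation p = 0.486) and Itga4 over Itgb7 by -0.06 (p = 0.914), and 0 of 8 ratios passed.

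**Figure D4:**
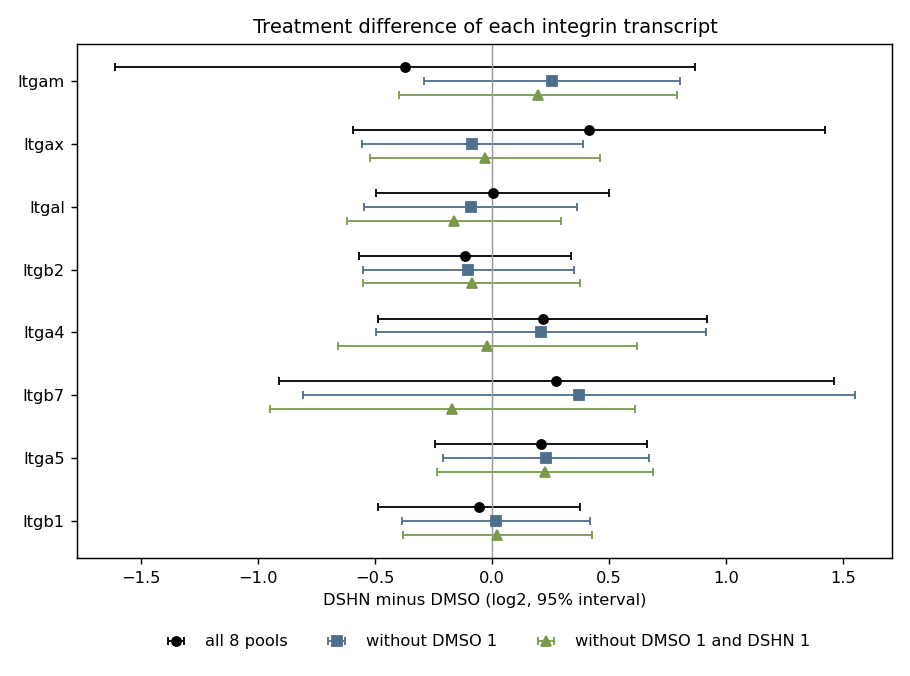
DSHN minus DMSO difference in scaled level (log2) of each integrin transcript with its 95% interval from limma, over all 8 pools, without DMSO 1, and without DMSO 1 and DSHN 1. Every interval includes 0. When DMSO 1 is left out, the points for Itgam and Itgax change sides, as do those for Itgal and Itgb1, which lie near 0.

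Covariation was examined for all 28 pairs of the 8 genes, as Pearson correlation of scaled levels over the 8 pools. Of these, 22 were positive and 6 negative, with a median r of 0.26, and 4 had an unadjusted exact p under 0.05. Without DMSO 3, 14 were positive and 14 negative, with a median r of 0.011. The pair Itga4 and Itgb7 alone passed after adjustment, and 0 pairs passed by rank correlation. All points share the scaling genes, so an error in a pool's scaling moves every gene of that pool together.

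The beta chains Itgb1 and Itgb2 did not pass after adjustment, with r = 0.83 (exact permutation p = 0.00603, adjusted p = 0.0844) and rho = 0.74 (exact permutation p = 0.0458, adjusted p = 0.539). Without DMSO 1 and DMSO 3, the pools farthest from the median of Itgb1, r was 0.88 (exact permutation p = 0.075), and without DMSO 3 alone 0.73 (adjusted exact permutation p = 0.437). Itgam and Itgax had r = -0.89 (exact permutation p = 0.0519, adjusted p = 0.291) and rho = -0.52 (exact permutation p = 0.197, adjusted p = 0.605). That relation rested on DMSO 1: r was -0.09 without it, and -0.26 (exact permutation p = 0.653) without DMSO 1 and DSHN 4, the pools farthest from the median of Itgam.

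Scaled to the 4 housekeeping genes, correlations of CD11c with Itgb2 and Itgb1 were higher without DMSO 1. The values over all 8 pools depended on the scaling. Scaled without Tubb5, r over all 8 pools was 0.73 for Itgax with Itgb2, 0.62 for Itgax with Itgb1 and -0.51 for Itgam with Itgb2. After centring pools on the panel median these were 0.73, 0.67 and -0.46. The values below are on the 4-gene scaling. Without DMSO 1, Itgax had r of 0.80 with Itgb2, 0.69 with Itgal and 0.90 with Itgb1. Without DSHN 1 alone these were 0.08, 0.66 and -0.26. Without DMSO 1 and DSHN 1, Itgax correlated with Itgb2 at 0.80, with Itgal at 0.89 and with Itgb1 at 0.94, against 0.08, 0.63 and -0.26 over all 8 pools, while Itgam and Itgb2 had 0.41 and 0.30. Over these 6 pools 26 of 28 pairs were positive, the median r was 0.59, and 0 pairs passed after adjustment, with 6 at an unadjusted exact p under 0.05.

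**Figure D5:**
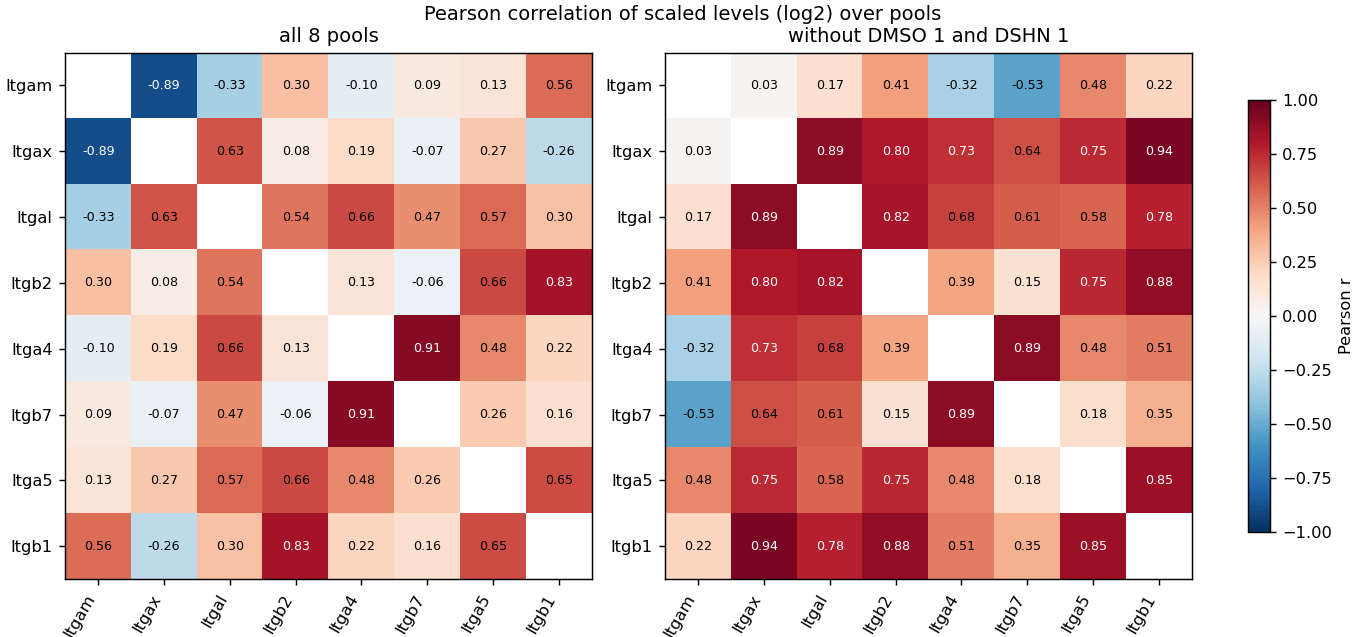
Pearson correlation between scaled levels (log2) of the integrin transcripts, over all 8 pools (left) and without DMSO 1 and DSHN 1 (right); colours run from -1 to 1 and each cell gives r. Itgam against Itgax is -0.89 on the left and 0.03 on the right, and Itga4 against Itgb7 is 0.91 and 0.89.

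Ligands, signalling partners and selectins were read from lists of the wider adhesion pathway. Of the beta 2 ligands, 4 were on the panel and 3 were tested, 1 with a difference above 0 and 2 below (median -0.07, against 0.03 over all tested genes), and 0 passed. Icam1, the ligand of LFA-1, differed by -0.07 ± 0.22 (SE), F11r by 0.25 ± 0.44 and C3, whose fragment iC3b binds CD11b/CD18, by -0.38 ± 0.40. Without DMSO 1 the differences were 0.0033 for Icam1, -0.23 for F11r and -0.04 for C3, and without DMSO 1 and DSHN 1 they were 0.12, -0.15 and 0.13. Fcer2a, the low-affinity IgE receptor CD23, was at background in every pool.

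Of 9 matrix and cell-surface ligands of the beta 1, beta 7 and alphaV integrins, 5 differences lay above 0 and 4 below, their median was 0.23, and 0 passed. Col4a2, a basement membrane collagen chain, had 7.42, 5.75, 5.28 and 5.41 in DSHN pools 1 to 4, against 4.45, 4.87, 4.91 and 5.10 in DMSO pools 1 to 4. No DSHN pool overlapped a DMSO pool, but Col4a2 was above background in 6 pools, not in DSHN 1 or DMSO 1. Its difference was 1.13 ± 0.48 (SE, unadjusted p = 0.0403, limma adjusted p = 0.925) and 0.52 without those pools. Cdh1, E-cadherin and the ligand of alpha E beta 7, differed by 0.41 ± 0.20 (limma adjusted p = 0.925) and Tgfb1, a cytokine released from its latent form by alphaV integrins, by -0.19 ± 0.21. Cdh1 was above background in 7 pools, not in DSHN 1, and differed by 0.29 without DMSO 1 and DSHN 1. Its groups did not overlap either, at 7.16 to 7.42 in DSHN pools and 6.65 to 7.11 in DMSO pools. In the other ligands of the 9 the groups overlapped, and over all tested genes they did not overlap in 3.25%. Fn1, fibronectin, had 9.66 to 10.78 in DSHN pools, 12.17 in DMSO 1 and 9.62 to 10.23 in the other DMSO pools.

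The 6 signalling genes were above background in every pool, 2 had differences above 0 and 4 below (median -0.07), and 0 passed. Tyrobp, an adaptor through which beta 2 integrins and other myeloid receptors signal, differed by 0.33 ± 0.24 (SE), Vav1, a signalling protein of blood cells, by -0.20 ± 0.20 and the kinase Fyn by -0.16 ± 0.19. Without DMSO 1 these were 0.21, -0.08 and -0.17. Among selectin pathway genes, Selplg, the selectin ligand PSGL-1, differed by -0.25 ± 0.20 (SE, limma adjusted p = 0.925) and Selp, P-selectin, by 0.14 ± 0.57 (limma adjusted p = 0.98), and Sele, E-selectin, was at background in every pool. Without DMSO 1, Selplg differed by -0.12 and Selp by 0.62. Selp was above background in 7 pools, not in DSHN 1, its highest DSHN pool. Without DMSO 1 and DSHN 1, Selplg differed by -0.14 and Selp by 0.26.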

How the data were processed

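The authors deposited log2 values with 2 decimals for 768 probes: 754 genes, 6 positive and 8 negative controls. Per the labels' protocols, cells were isolated with CD11b and CD11c beads from dissociated, pooled lungs; the software behind the values was not given in the sources used here. Low values of each pool, up to 40 counts, were whole multiples of 1 step within 0.005 (log2), which gave a factor per pool of 0.605 to 6.84. Counts recovered by dividing by it are exact only for low values. A gene was above background where its count exceeded the negative controls' mean plus 2 SD (18.0 to 40.0 counts).

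For the tests, each pool was scaled to the geometric mean of 4 housekeeping genes. limma 3.58.1 (R 4.3.3, variance trend) compared 4 DSHN with 4 DMSO pools over 554 genes with a deposited value, unlogged, of 20 or more in at least 4 pools, and p-values were adjusted by Benjamini-Hochberg at 0.05 over all of them. Chain ratios were compared by exact permutation over 70 assignments and correlations over 40320 pairings. Scripts were tested on simulated data. Members and lists were chosen with earlier results of these data known. All integrins are named, as are, of the 5 genes most correlated with Itgam and with Itgax and the 3 with the smallest p in each list, those that could be reported; some are not reported here. Fcer2a, Fn1, Sele, Pf4, Prg2, Ear6 and Epx were named after their values were seen. Alternatives in scaling, filter, test and pools are in the closing section.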

Additional observations from a re-analysis of the deposited data

Results flagged for a closer look

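In 32 sets of 4 pools (8 genes and 8 ratios, in each treatment), 4 had 1 pool whose gap to the nearest of the others exceeded Dixon's 95% critical share of the range, and chance gives about 1 in 20. Itgb1 was 10.57 (scaled log2 level) in DSHN 4, against 10.41 to 10.44 in the other DSHN pools. Log2 Itga5 over Itgb1 was -1.81 in DSHN 2, against -1.64 to -1.62 in the other DSHN pools. Itgam was 10.96 in DMSO 1, against 8.39 to 8.49 in the other DMSO pools. Log2 Itgax over Itgb2 was -4.12 in DMSO 1, against -2.18 to -1.86 in the other DMSO pools.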

How the results depend on the processing

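No integrin difference or chain ratio passed its threshold under any alternative run. Over all tested genes limma called 0 under every alternative, and the count at an unadjusted p under 0.05, 20 of 554, was 196 on deposited values, 40 with no filter, 12 after background subtraction, 4 among genes above background in all 8 pools, 12 without DSHN 1 and 11 without DSHN 3. Signs of small differences turned, and the cause was not tested. On deposited values Itga4 differed by -1.69, Itga5 by -1.69, Itgal by -1.90, Itgax by -1.49 and Itgb7 by -1.63, beside the panel's shift. Scaled without Tubb5, Itgb1 differed by 0.12 and Itgb2 by 0.055, with quantile normalization by 0.12 and 0.12, and Itgal by -0.019 with background subtraction. Without DMSO 1 and DSHN 1, Itga4 differed by -0.021, Itgal by -0.16, Itgam by 0.20, Itgax by -0.031, Itgb1 by 0.0225 and Itgb7 by -0.17; log2 Itgax/Itgam by -0.23, Itgal/Itgam by -0.36, Itgam/Itgb2 by 0.28, Itgal/Itgb2 by -0.077, Itga4/Itgb1 by -0.043 and Itga4/Itgb7 by 0.15.

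Leaving out 1 pool at a time, the difference ran from -0.013 to 0.41 for Itga4, 0.0775 to 0.27 for Itga5, -0.0925 to 0.11 for Itgal, -0.60 to 0.25 for Itgam, -0.086 to 0.69 for Itgax, -0.18 to 0.015 for Itgb1, -0.24 to -0.049 for Itgb2 and -0.27 to 0.65 for Itgb7. The ratio differences ran from -0.34 to 1.30 for Itgax/Itgam, -0.35 to 0.72 for Itgal/Itgam, -0.53 to 0.36 for Itgam/Itgb2, 0.016 to 0.77 for Itgax/Itgb2, 0.0092 to 0.195 for Itgal/Itgb2, 0.036 to 0.50 for Itga4/Itgb1, 0.22 to 0.32 for Itga5/Itgb1 and -0.24 to 0.26 for Itga4/Itgb7. The number of correlated pairs, 1 of 28, was 0 to 1 without 1 pool, 0 by Spearman, 0 scaled without Tubb5, 0 without DMSO 1 and DSHN 1, 2 on deviations from group means, 5 after median centring and 26 on deposited values, which share each pool's factor. Itgam and Itgax correlated at 0.67 on deposited values and at 0.028 without DMSO 1 and DSHN 1. Pools with the same number did not deviate together (correlations -0.18, 0.14, 0.02 and -0.29); with the number as a replicate block, 0 integrins passed and 11 genes had an unadjusted p under 0.05. Depth was lowest in DSHN 1, with 83 to 540 counts for the integrins. The SE was 0.65 for Itgam and 0.52 for Itgax without DSHN 1, and 0.25 and 0.21 without DMSO 1.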
